A study of Mus musculus with 16 samples.

Results

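The genes described here are 7 genes of cardiac sodium, potassium and pacemaker channels, chosen by name from the 22468 genes counted in mouse ventricle: Scn4b, Kcnq1, Kcnh2, Kcnj2, Kcnd3, Kcnip2 and Hcn4. All 7 were found through their Ensembl identifiers, and 5 of them (Kcnh2, Kcnq1, Kcnip2, Kcnj2 and Hcn4) had enough reads to be among the 13412 genes tested. Polyadenylated RNA was sequenced from the whole ventricles of neonatal mice, taken from above and below the ligation, in 16 samples. They formed 4 groups of 4 samples: Chrna7 knockout (KO) mice after myocardial infarction (MI), KO mice after sham surgery, wild-type (WT) mice after MI, and WT mice after sham surgery. Chrna7 encodes the alpha7 nicotinic acetylcholine receptor subunit, and the knockout is a Jackson Laboratory line carried in every cell. MI was induced surgically by a ligation. The labels do not give the litter, the sex, the day of surgery or harvest, nor do they say if samples come from separate animals, so the p-values reflect the spread among these samples alone. The design asks what MI does to ventricular RNA in each genotype and whether the genotypes differ.

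Cardiac channel proteins shape the heartbeat by letting ions cross the membrane in a fixed order. Sodium channels start the action potential, a fast transient potassium current and later delayed rectifier potassium currents repolarise the cell, and the inward rectifier holds the resting potential. Hyperpolarisation-activated channels carry the inward current that drives spontaneous firing of pacemaker cells, and in the adult heart Hcn4 is known chiefly from the sinoatrial node and conduction tissue, while embryonic ventricular muscle also makes it. Kcnh2 encodes the pore subunit of the rapid and Kcnq1 that of the slow delayed rectifier. Kcnj2 encodes the inward rectifier Kir2.1. Kcnd3 encodes the transient outward channel Kv4.3 and Kcnip2 its cytoplasmic beta subunit, while Scn4b encodes a beta subunit of the sodium channel.

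Promoter sequence is shown for the gene with a called difference, Hcn4, and for the gene with the highest level, Kcnh2. Each run is the 250 bases before the annotated start, 5′ to 3′ on the gene's own strand, from RefSeq on build GRCm38.p6: Hcn4 at chr9:58822699-58822948 on the plus strand and Kcnh2 at chr5:24329592-24329841 on the minus strand. Capitals mark GGGCGG on either strand, the core of the GC box bound by Sp-family factors.
Hcn4: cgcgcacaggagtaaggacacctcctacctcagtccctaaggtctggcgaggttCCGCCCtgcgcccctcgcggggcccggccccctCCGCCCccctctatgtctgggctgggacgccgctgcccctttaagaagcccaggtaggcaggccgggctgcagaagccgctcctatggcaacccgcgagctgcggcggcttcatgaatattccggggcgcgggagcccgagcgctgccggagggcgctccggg
Kcnh2: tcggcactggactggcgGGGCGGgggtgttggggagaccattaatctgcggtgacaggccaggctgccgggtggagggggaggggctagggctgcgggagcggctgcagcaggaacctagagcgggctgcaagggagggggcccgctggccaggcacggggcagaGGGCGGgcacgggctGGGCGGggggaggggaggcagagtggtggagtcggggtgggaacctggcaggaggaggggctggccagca
The Hcn4 run held 2 GGGCGG matches and the Kcnh2 run 3, and 32.7% of the 32851 promoters of the same length held at least 1. GC content was 71.2% for Hcn4 and 73.6% for Kcnh2, above the promoter median of 52.4% and at percentiles 92.2 and 94.7. Neither run held TATAAA (12.4% of all promoters did), CCAAT (33.8%), GATAA (22.6%) or CANNTG (66.2%), each searched on both strands. These are matches of letters and not measured binding sites.

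Gene counts per sample lay between 10711442 and 17223580, so that 3 reads corresponded to 0.179 to 0.29 CPM, the unit of reads scaled to the library total. Ventricular tissue was present by its marker: Myl2, the ventricular myosin light chain, lay between 7650 and 12400 CPM. Chrna7 itself had 2 to 4 reads per sample in KO MI, 0 to 2 in KO sham, 0 to 2 in WT MI and 0 to 2 in WT sham, too few to check the genotype labels. On the first principal component KO sham lay by itself, at 27.9 to 31.6 against at most 0.973 in the other groups. It was also low in atrial and mesothelial genes: over WT sham all 6 atrial genes fell (median log2 -2.31), as did all 8 epicardial and mesothelial genes (median -2.18), 6 of 8 immediate early genes and 7 of 7 erythroid genes, by edgeR's quasi-likelihood test. Every comparison with KO sham below carries these differences, and their part in the channel values was not tested beyond a covariate for 3 atrial genes (Myl7, Myl4 and Sln). Y-linked transcripts were low in 3 libraries, KO MI replicate 1, KO sham replicate 2 and WT sham replicate 1. Their summed levels were 2.74, 2.132 and 1.729 CPM, against 151.9 to 230.9 CPM in all other libraries. No WT MI library was low, so the groups were not balanced in these transcripts. KO MI replicate 4 had the lowest summed level of 15 ventricular cardiomyocyte genes, 63960 CPM against 88490 to 93540 CPM in the other KO MI samples, and the highest summed level of 14 leukocyte genes, 489.7 CPM against 193.9 to 306.9 CPM. Its mitochondrial share of counts was 17.35%, against 9.791 to 10.6% in the other KO MI samples and at most 13.44% elsewhere, and it had the lowest share of reads in no feature (23.74%) and the highest ambiguous share (2.081%). That sample was also the lowest of all 16 for Kcnh2, Kcnq1, Kcnip2 and Hcn4, which is 4 of the 5 tested genes. In bulk tissue, fewer cells of a type and less RNA per cell cannot be told apart.

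Compared per kilobase of exon, the levels of the 7 genes covered a wide range. Kcnh2 was highest, at 46.6 ± 6.39 CPM per kb over the 16 samples (mean ± SD), and stood above every other member in all 16. Kcnip2 followed with 17.4 ± 2.4 and Kcnq1 with 13.9 ± 1.74 CPM per kb, and Kcnip2 was the higher of the pair in 15 of 16 samples although their ranges overlapped. Kcnj2 (1.88 ± 0.468 CPM per kb) and Hcn4 (1.30 ± 0.369 CPM per kb) formed the next pair, again with overlapping ranges and Kcnj2 higher in 15 of 16. Kcnd3 (0.0531 ± 0.0269 CPM per kb) and Scn4b (0.0256 ± 0.0182 CPM per kb) were lowest, at or near the counting floor.

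**Figure D1:**
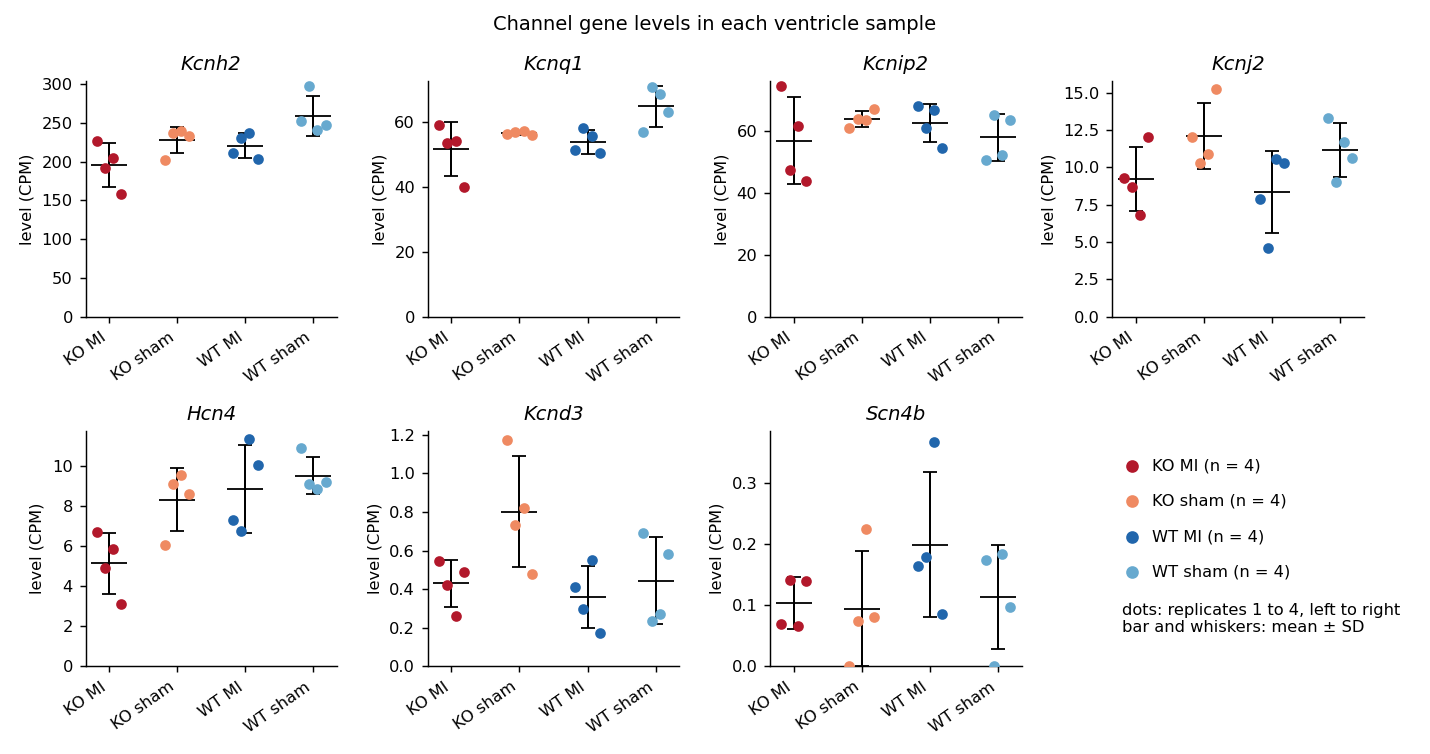
Level in CPM of the 7 channel genes in each of the 16 samples, with the group mean and SD (n = 4), in panels with separate axes. KO MI has the lowest mean for Hcn4, with samples between 3.133 and 6.713 CPM, while the Scn4b and Kcnd3 panels rest on at most 18 reads per sample.

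Hcn4, the main pacemaker channel gene, was the 1 member with a called difference: it fell after MI in KO ventricles. The 4 KO MI samples had 6.713, 4.912, 5.839 and 3.133 CPM, against 6.052, 9.116, 9.566 and 8.58 CPM in KO sham. KO MI replicates 2, 3 and 4 lay below every KO sham sample, and the groups overlapped through KO MI replicate 1 and KO sham replicate 1. The means were 5.15 ± 1.53 CPM in KO MI and 8.33 ± 1.57 CPM in KO sham (SD, n = 4 each), a 1.61-fold fall. The log2 fold change was -0.69 (SE 0.208, 95% confidence interval -1.12 to -0.25), with an adjusted p of 0.0294 in edgeR's quasi-likelihood test with Benjamini-Hochberg adjustment over all 13412 genes. In this comparison 16.6% of all tested genes were called in either direction and 8.02% were called lower, and 1 of the 5 tested members was called.

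The Hcn4 call did not survive every omission of a sample. Without KO MI replicate 4 the log2 fold change was -0.52 (adjusted p = 0.059), and without KO MI replicate 2 it was -0.67 (adjusted p = 0.0732). Leaving out KO sham replicate 2, 3 or 4 gave adjusted p-values of 0.077, 0.0829 and 0.0692. With the covariate for atrial genes the log2 fold change was -0.71 and the adjusted p 0.0525. The sign stayed negative in all 29 alternatives, with log2 values between -0.84 and -0.49 and adjusted p-values between 0.0145 and 0.0829, and 23 of them kept the call. These 23 include the omission of each WT sample, which is not part of this comparison. Of the omissions of a KO sample, only those of KO sham replicate 1, KO MI replicate 1 and KO MI replicate 3 kept the call.

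After MI in WT ventricles Hcn4 was not called. Its levels were 7.321, 6.745, 11.35 and 10.04 CPM in WT MI, against 10.9, 9.12, 8.862 and 9.184 CPM in WT sham. The WT MI samples fell on both sides of the WT sham range. The log2 fold change was -0.11 (95% confidence interval -0.53 to 0.31, adjusted p = 0.844, edgeR quasi-likelihood). The test of the difference between the genotypes' MI responses, the interaction, gave -0.57 on the log2 scale (SE 0.289, 95% confidence interval -1.18 to 0.030, adjusted p = 0.303 in edgeR), so the fall in KO was not shown to differ from the response in WT.

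Between genotypes after MI, every KO MI sample had less Hcn4 than every WT MI sample. Of all tested genes, 1.02% showed the same separation in that direction. The margin was narrow, with KO MI replicate 1 at 6.713 CPM and WT MI replicate 2 at 6.745 CPM. These are TMM-scaled levels, and the separation was not checked under other scalings. The log2 fold change was -0.77 (SE 0.208, 95% confidence interval -1.20 to -0.34), and the unadjusted p of 0.0014 ranked 32 among 13412 genes. The adjusted p of 0.585 in edgeR did not pass the threshold. After sham surgery Hcn4 averaged 8.33 ± 1.57 CPM in KO and 9.52 ± 0.931 CPM in WT (SD, n = 4 each), with a log2 fold change of -0.20 (95% confidence interval -0.62 to 0.22, adjusted p = 0.537, edgeR quasi-likelihood) and overlapping samples. Scaled to cardiomyocyte genes, that log2 fold change was 0.020, against a median of 0.218 for all genes. The KO MI samples are shared between the first and the third of these comparisons, and the KO sham samples between the first and the last.

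Markers of other tissues moved in the same comparison as Hcn4. The summed level of 14 conduction-system genes was 218 to 287 CPM in KO MI, against 302 to 325 CPM in KO sham. Of the 13 tested genes of that list 1 rose and 3 fell: Gja5, an atrial and conduction gap junction gene, rose (log2 0.99, adjusted p = 0.0115), and Cntn2 (-1.11, adjusted p = 0.00912), Rgs6 (-0.50, adjusted p = 0.00259) and Smoc2 (-0.40, adjusted p = 0.00501) fell, by edgeR's quasi-likelihood test. Of the sinoatrial transcription factors on the list, Isl1 had 0 to 0.387 CPM and Shox2 0.259 to 1.03 CPM over all 16 samples, while Tbx3 had 9.05 to 15.6 CPM and Tbx18 3.96 to 9.25 CPM. None of the 3 that were tested, Shox2, Tbx3 and Tbx18, was called in KO MI over KO sham. Cacna1g, a T-type calcium channel gene, added a mean of 115 CPM to the sum. It had a log2 fold change of -0.44 and was not called (adjusted p = 0.116, edgeR quasi-likelihood).

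Leukocyte genes also moved: 10 of 13 tested rose in KO MI over KO sham, and their summed level was 194 to 490 CPM in KO MI, against 122 to 141 CPM in KO sham. Of 15 ventricular cardiomyocyte genes 3 fell and 12 were not called, with sums of 64000 to 93500 CPM in KO MI, against 87600 to 91400 CPM in KO sham. With libraries scaled to those cardiomyocyte genes, Hcn4 had a log2 fold change of -0.68 in KO MI over KO sham (adjusted p = 0.0463, edgeR quasi-likelihood). All 8 epicardial and mesothelial genes rose in this comparison (median log2 2.0), with sums of 48 to 129 CPM in KO MI, against 27.7 to 35.3 CPM in KO sham, and 6 of 8 immediate early genes rose. The sum of 6 atrial genes was 678 to 2830 CPM in KO MI, against 293 to 638 CPM in KO sham, and 1 of them, Nppa, was called (log2 2.51, adjusted p = 0.0169, edgeR quasi-likelihood). Apart from the atrial covariate and the cardiomyocyte scaling, the part of these genes in the Hcn4 value was not tested.

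**Figure D2:**
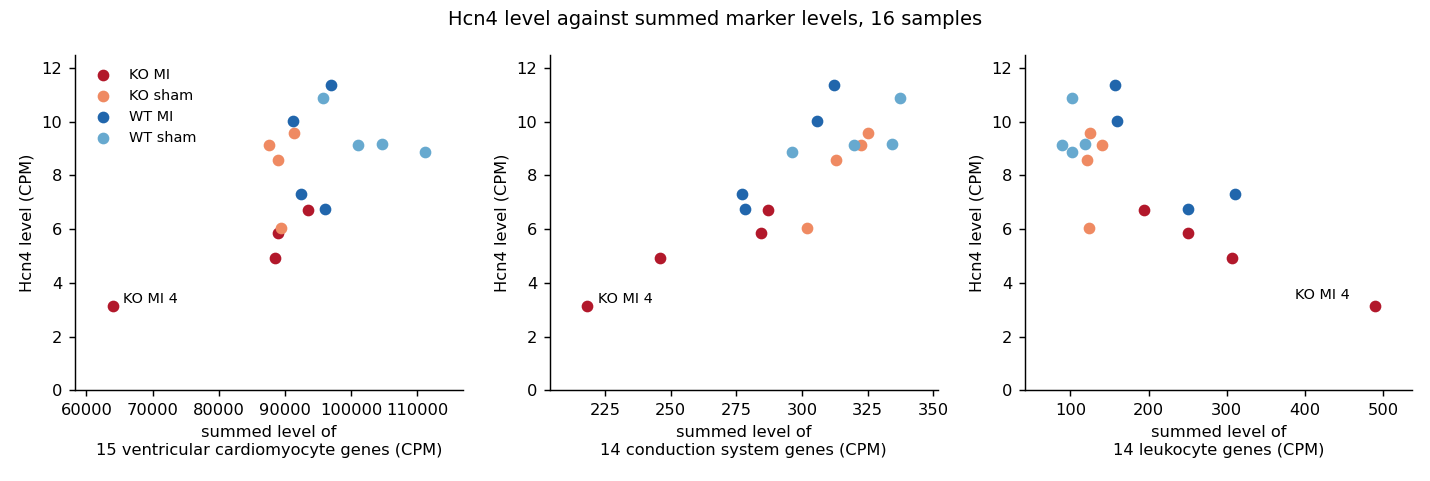
Hcn4 level in CPM against the summed level in CPM of 15 ventricular cardiomyocyte, 14 conduction-system and 14 leukocyte genes in the 16 samples, coloured by group. KO MI replicate 4 lies at the low end for Hcn4 (3.133 CPM), cardiomyocyte genes (63960 CPM) and conduction-system genes (218.3 CPM), and at the high end for leukocyte genes (489.7 CPM).

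The delayed rectifier genes Kcnh2 and Kcnq1 had their highest means in WT sham, and no difference in either was called. Kcnh2 had 227, 191.4, 204.4 and 159 CPM in KO MI, 202.3, 237.3, 239.1 and 233.2 CPM in KO sham, 211, 231.2, 236.8 and 203.9 CPM in WT MI, and 252.5, 297.2, 240.4 and 247.3 CPM in WT sham. Every WT MI sample and every KO sham sample lay below every WT sham sample, while KO MI and KO sham overlapped. The margins were narrow: WT sham replicate 3 had 240.4 CPM, KO sham replicate 3 had 239.1 CPM and WT MI replicate 3 had 236.8 CPM. These are TMM-scaled levels, and the separations were not checked under other scalings. Among all tested genes 3.71% were lower without overlap in WT MI than in WT sham, and 12.3% in KO sham than in WT sham. The Kcnh2 log2 fold change was -0.22 for KO MI over KO sham (SE 0.101, adjusted p = 0.138) and -0.23 for WT MI over WT sham (SE 0.101, adjusted p = 0.277), by edgeR's quasi-likelihood test. Their difference, the interaction, was 0.011 with a 95% confidence interval of -0.29 to 0.31 (adjusted p = 0.977, edgeR quasi-likelihood). Between genotypes the log2 fold change was -0.18 after MI (adjusted p = 0.976) and -0.19 after sham surgery (adjusted p = 0.214), by the same test. Scaled to cardiomyocyte genes, the value after sham surgery was 0.035, against a median of 0.218 for all genes. After a length and GC correction the WT MI over WT sham difference passed the threshold (-0.28, adjusted p = 0.043).

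Kcnq1 had 59.19, 53.68, 54.06 and 39.89 CPM in KO MI, 56.42, 56.9, 57.17 and 55.97 CPM in KO sham, 51.41, 58.14, 55.84 and 50.38 CPM in WT MI, and 56.81, 70.93, 68.52 and 63.03 CPM in WT sham. WT sham replicates 2, 3 and 4 stood above every other sample, while WT sham replicate 1 lay within the range of the other groups. The log2 fold change was -0.26 for WT MI over WT sham (SE 0.101, 95% confidence interval -0.48 to -0.053), with an unadjusted p of 0.0167 and an adjusted p of 0.206 in edgeR's quasi-likelihood test. That difference passed the threshold with limma voom (-0.30, adjusted p = 0.0384), after a length and GC correction (-0.30, adjusted p = 0.0323) and without KO MI replicate 4 (-0.27, adjusted p = 0.043). The other Kcnq1 log2 fold changes were -0.13 for KO MI over KO sham (adjusted p = 0.393), -0.062 for KO MI over WT MI (adjusted p = 0.981) and -0.20 for KO sham over WT sham (adjusted p = 0.19), in edgeR. The last was 0.033 when scaled to cardiomyocyte genes (median of all genes 0.218) and passed the threshold with limma voom (-0.21, adjusted p = 0.0294). An antisense gene, Kcnq1ot1, shares 121 exon bases (2.96% of the Kcnq1 exon sequence) in the annotation. The strand setting of the counting is not given. If counting ignored strand, Kcnq1ot1 reads there could not be told from those of Kcnq1.

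The inward rectifier gene Kcnj2 had lower means after MI in both genotypes, without a call in either. Its levels were 9.316, 8.701, 6.823 and 12.04 CPM in KO MI and 12.04, 10.29, 10.91 and 15.24 CPM in KO sham. The corresponding WT values were 7.897, 4.596, 10.53 and 10.3 CPM in WT MI and 13.32, 9.042, 11.69 and 10.63 CPM in WT sham. Replicate 4 was the highest of the KO MI samples for this gene, unlike the other tested members, and the MI and sham groups overlapped in both genotypes. The log2 fold change was -0.39 in KO (95% confidence interval -0.84 to 0.051, adjusted p = 0.213) and -0.44 in WT (95% confidence interval -0.90 to 0.020, adjusted p = 0.36), by edgeR's quasi-likelihood test. With limma voom the KO value was -0.54 and passed the threshold (adjusted p = 0.0114). KO over WT gave 0.17 after MI (95% confidence interval -0.29 to 0.63, adjusted p = 0.981) and 0.12 after sham surgery (-0.33 to 0.56, adjusted p = 0.747), in edgeR. The sham value depended on the setting: it was 0.63 with the atrial covariate (adjusted p = 0.214), 0.34 when scaled to cardiomyocyte genes (median of all genes 0.218) and -0.0090 without KO sham replicate 4, and was not called in any alternative.

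Kcnip2, the beta subunit of the transient outward channel, was the one tested member with a positive value after MI in WT. Its levels were 74.74, 47.64, 61.87 and 43.93 CPM in KO MI and 60.98, 64.03, 63.82 and 67.28 CPM in KO sham, and KO MI held both the highest and the lowest sample of all 16. The WT samples had 68.11, 61.13, 67.1 and 54.76 CPM in WT MI and 50.85, 65.4, 52.26 and 63.71 CPM in WT sham. All groups overlapped. The log2 fold change was -0.17 for KO MI over KO sham (95% confidence interval -0.44 to 0.11, adjusted p = 0.408) and 0.11 for WT MI over WT sham (-0.17 to 0.39, adjusted p = 0.753), by edgeR's quasi-likelihood test. The interaction was -0.28 (95% confidence interval -0.67 to 0.11, adjusted p = 0.46, edgeR quasi-likelihood). KO over WT gave -0.14 after MI (adjusted p = 0.976) and 0.14 after sham surgery (adjusted p = 0.496), in the same test. Scaled to cardiomyocyte genes, which shifted the median of all genes by 0.218 in that comparison, the sham value was 0.37 and passed the threshold (adjusted p = 0.0321).

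Kcnd3 and Scn4b did not pass the filter on low counts. Kcnd3 had 8, 6, 4 and 7 reads in KO MI, 18, 10, 11 and 6 in KO sham, 5, 5, 6 and 2 in WT MI, and 8, 3, 3 and 6 in WT sham. Its group means were 0.430 ± 0.123 CPM in KO MI, 0.802 ± 0.285 CPM in KO sham, 0.358 ± 0.161 CPM in WT MI and 0.445 ± 0.226 CPM in WT sham (SD, n = 4 each). The KO sham samples reached highest but overlapped every other group. In a fit with no filter on low counts (18114 genes) the Kcnd3 log2 fold change was -0.91 for KO MI over KO sham (SE 0.441, adjusted p = 0.202) and 0.87 for KO sham over WT sham (SE 0.457, adjusted p = 0.238), by edgeR's quasi-likelihood test. An antisense gene, Kcnd3os, shares 165 exon bases (1.72%) with Kcnd3 in the annotation.

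Scn4b had 1, 2, 1 and 2 reads in KO MI, 0, 1, 3 and 1 in KO sham, 2, 3, 4 and 1 in WT MI, and 2, 0, 2 and 1 in WT sham. In all, 15 of the 16 samples were at or under 3 reads, so a difference between groups was not detectable at this depth. None of the 5 comparisons passed the threshold for Scn4b in the unfiltered fit, where the adjusted p lay between 0.723 and 0.972 (edgeR quasi-likelihood).

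**Figure D3:**
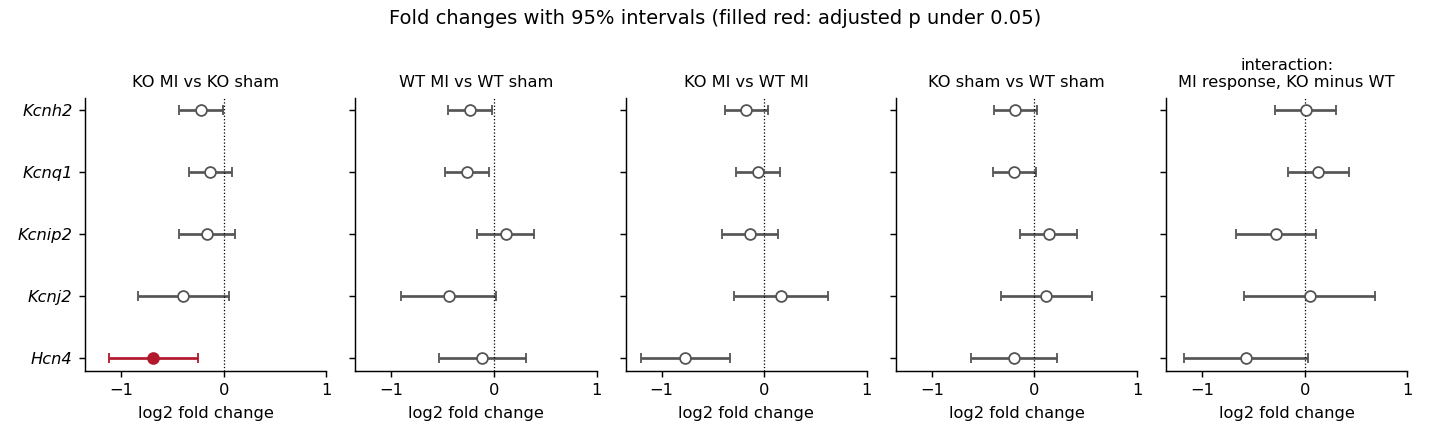
Log2 fold change with its 95% confidence interval for the 5 tested channel genes in the 5 comparisons. The filled point is the called difference, Hcn4 in KO MI over KO sham at -0.69, and the open points did not pass the adjusted threshold.

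Beyond Hcn4 in KO MI over KO sham, the edgeR fit called no tested member. In KO MI over KO sham all 5 log2 values were negative with a median of -0.22, against 0.0078 for all tested genes. Without KO MI replicate 4 the KO MI means of Kcnq1, Kcnip2 and Kcnh2 were 55.6, 61.4 and 208 CPM, against 56.6, 64.0 and 228 CPM in KO sham. Those of Hcn4 and Kcnj2 were 5.82 and 8.28 CPM, against 8.33 and 12.1 CPM. With 1 sample left out the log2 value reached -0.030 for Kcnq1, -0.064 for Kcnip2 and -0.14 for Kcnh2. In WT MI over WT sham 4 of 5 were negative with a median of -0.23, against -0.011, and 0 of 5 were called where 2.25% of all genes were. Scaled to cardiomyocyte genes Hcn4 was positive there too, at 0.0088 against a median of 0.113 for all genes. At an unadjusted p under 0.05 there were 2 members in each of these comparisons, of 4207 and 2007 genes. KO MI over WT MI had a member median of -0.14 (all genes 0.0046), with 0 of 5 called and 0.0149% of all genes, and 1 member at an unadjusted p under 0.05. KO sham over WT sham had a member median of -0.19 (all genes -0.0056), with 0 of 5 called where 15.3% of all genes were, and 0 members at an unadjusted p under 0.05. Scaled to cardiomyocyte genes, the 3 members with negative values in that comparison turned positive. They had 0.033 for Kcnq1, 0.035 for Kcnh2 and 0.020 for Hcn4, and stayed below the median of all genes under that scaling, 0.218. Of the 15 scaling genes 3 were called lower and 0 higher in this comparison with TMM. For the interaction the member median was 0.011 (all genes 0.0025), with 0 of 5 called and 2.74% of all genes, and 0 members at an unadjusted p under 0.05. DESeq2 called the same numbers of members, and limma voom called 1 member in WT MI over WT sham, 2 in KO MI over KO sham, 1 in KO sham over WT sham and 0 in the other 2 comparisons.

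Other channel genes and genes listed as channel partners gave the setting. Of 80 further genes listed for sodium, potassium and pacemaker channels and their partners, 58 were tested, and 14 of these were partners. Of the 14 partners 1 rose and 7 fell in KO MI over KO sham, and 4 rose and 5 fell in KO sham over WT sham. Of all 58, 6 rose and 15 fell in KO MI over KO sham, with a median log2 fold change of -0.26. Among all tested genes 16.6% were called there and 8.02% were called lower, with a median of 0.0078. In WT MI over WT sham 1 rose and 1 fell (median -0.095), where 2.25% of all tested genes were called. In KO MI over WT MI 0 were called by edgeR, DESeq2 or limma voom, with 5 at an unadjusted p under 0.05 (median -0.091), and 0.0149% of all tested genes were called by edgeR. In KO sham over WT sham 12 rose and 7 fell (median 0.18), where 15.3% of all tested genes were called. The interaction was called negative in 4 and positive in 0 (median -0.25), where 2.74% of all tested genes were called. Without libraries low in Y-linked transcripts the KO MI over KO sham count was 15 and the KO sham over WT sham count 11, and with the atrial covariate the KO sham over WT sham count was 4. Without KO MI replicate 2 the KO MI over KO sham count was 13, and without KO sham replicate 2 the KO sham over WT sham count was 11. Scaled to cardiomyocyte genes, 18 of these genes rose and 3 fell in KO sham over WT sham, with the median of all genes at 0.218. With limma voom 32 genes were called in KO MI over KO sham and 10 for the interaction, and over the alternatives the WT MI over WT sham count ran from 0 to 5.

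Kcnd2, the other transient outward pore gene, had 1.72 ± 0.281 CPM per kb in KO sham, against 0.793 ± 0.0749 CPM per kb in WT sham, and rose in that comparison (log2 1.12, SE 0.235, adjusted p = 0.00378, edgeR quasi-likelihood). Kcnd3 stood at 0.0837 ± 0.0298 CPM per kb in KO sham and 0.0464 ± 0.0236 CPM per kb in WT sham. Irx3, a transcription factor of the ventricular conduction system, rose 2.15-fold in KO sham over WT sham (adjusted p = 0.000266) and fell in KO MI over KO sham (log2 -0.83, adjusted p = 0.00271), by edgeR's quasi-likelihood test. Both comparisons use the KO sham samples.

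Abcc9 and Kcnj8, subunits of the ATP-sensitive potassium channel that are abundant in pericytes, rose in KO sham over WT sham by log2 0.57 (adjusted p = 0.00413) and 0.53 (adjusted p = 0.00316), in edgeR. Abcc9 fell in KO MI over KO sham (-0.67, adjusted p = 0.0015, edgeR quasi-likelihood). Both are on the list of 8 mural-cell genes, which went both ways. In KO sham over WT sham 4 of the 8 rose, with Pdgfrb (log2 0.68) and Rgs5 (0.91) beside Abcc9 and Kcnj8, and Cnn1 (-1.42) and Tagln (-0.86) fell. In KO MI over KO sham 2 rose, Cnn1 and Tagln (0.80), and 3 fell, Abcc9, Pdgfrb (-0.50) and Rgs5 (-0.49). The part of mural cells in these values was not tested. Nedd4l, a ubiquitin ligase acting on sodium channels, fell in KO sham over WT sham (-0.53, adjusted p = 0.00214), Fgf13, a sodium channel regulator, fell in KO MI over KO sham (-0.62, adjusted p = 0.000178) and in WT MI over WT sham (-0.33, adjusted p = 0.0466), and Rangrf, a sodium channel trafficking factor, rose in KO MI over KO sham (0.53, adjusted p = 0.00237), all by edgeR's quasi-likelihood test. The WT call of Fgf13 was kept in 8 of 29 alternatives (adjusted p 0.013 to 0.435), that of Rangrf was lost with the length and GC correction (0.0547), and those of Nedd4l, Kcnj8, Kcnd2 and Abcc9 in KO sham over WT sham were lost with the atrial covariate (adjusted p = 0.0679, 0.123, 0.135 and 0.074).

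Hcn2, another pacemaker channel gene, stood above Hcn4 in every group. It had 10.3 ± 2.24 CPM per kb in KO MI, 14.2 ± 1.55 in KO sham, 13.1 ± 1.8 in WT MI and 9.34 ± 1.79 in WT sham. The interaction was -0.94 on the log2 scale (SE 0.214, adjusted p = 0.0232, edgeR quasi-likelihood), that is, the MI response in KO was below that in WT. This call was lost with the atrial covariate (adjusted p = 0.123) and without WT sham replicate 3, KO sham replicate 3 or 4, or KO MI replicate 2 (0.0504 to 0.0529). The interaction was also called negative for Irx3 (-1.30, adjusted p = 0.00518) and Irx5 (-0.96, adjusted p = 0.0216), in edgeR, and both calls were lost with the atrial covariate (adjusted p = 0.0518 and 0.123). The Irx5 call was kept in 24 of 28 alternatives.

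**Figure D4:**
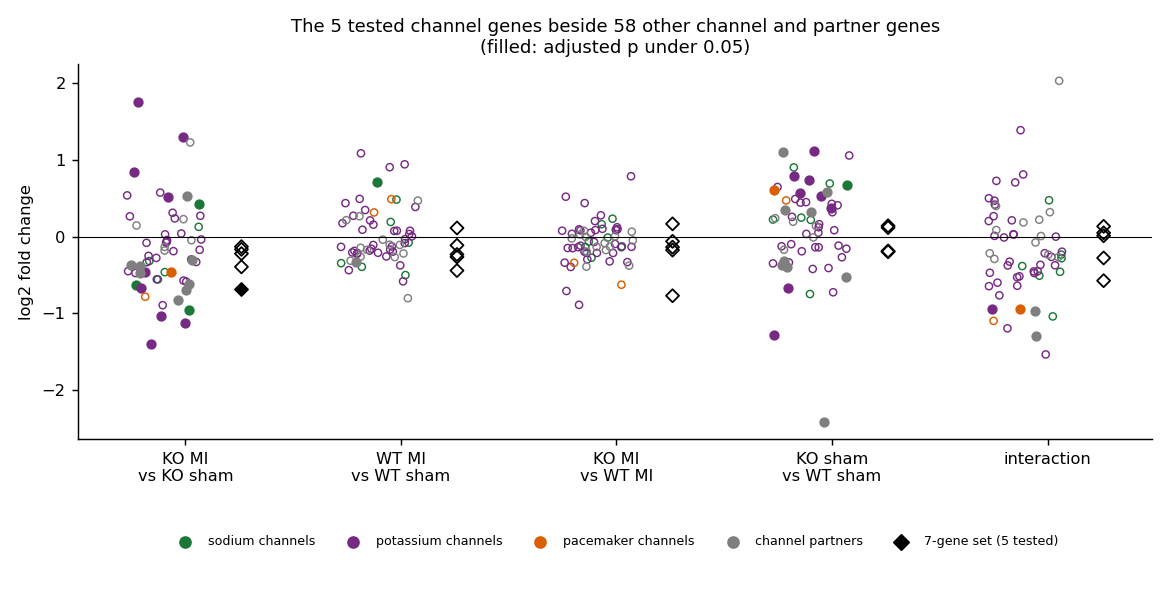
Log2 fold change of the 5 tested channel genes (diamonds) beside 58 other channel and partner genes (circles) in the 5 comparisons, with filled symbols at an adjusted p under 0.05. In KO MI over KO sham 6 circles are filled above 0 and 15 below, with 1 filled diamond at -0.69 for Hcn4, where 16.6% of all tested genes were called.

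The genes whose levels ran closest to each member over the 16 samples were found by the root mean square difference of log2 CPM, each centred on its own mean, among 10552 genes of at least 5 CPM. For Hcn4 they were Cacna1g, the T-type calcium channel gene, at 0.218, and Palld at 0.246, against a spread of Hcn4 itself of 0.457. Hcn4, Cacna1g and Palld each had their lowest sample in KO MI, at 3.133, 48.87 and 105 CPM. The KO MI means were 5.149, 87.69 and 200 CPM, and the part of single low samples in this likeness was not tested. For Kcnq1 the closest genes were Unc45b, a myosin chaperone gene, at 0.0588 and Eml2 at 0.0752. Kcnh2 had Grb14 at 0.0868 and Unc45b at 0.0934, and Kcnq1 and Kcnh2 differed from each other by 0.0952. Kcnip2 ran closest to Dusp10 (0.107) and Egfl7 (0.113), and Kcnj2 to Zfp445 (0.153) and Cpeb4 (0.154). The members' own spreads were 0.181 for Kcnq1, 0.196 for Kcnh2, 0.202 for Kcnip2 and 0.389 for Kcnj2. Many genes ran about as close to the members of small spread: 519 lay within 0.15 of Kcnq1, 262 of Kcnh2 and 101 of Kcnip2, against 0 for Kcnj2 and Hcn4. All of these values rest on the same 16 libraries.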

How the data were processed

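RNA was measured in 16 ventricle samples in 4 groups of 4, grouped by the labels' genotype and surgery. The authors deposited raw counts, whole numbers of reads per Ensembl gene, in 1 table. Per the submitters' processing notes the build was GRCm39, and the tools were HISAT2 2.2.1, HTSeq 0.13.5, DESeq2, bcl2fastq 2.17, FastQC and cutadapt 3.4, and the strand setting and annotation release are not given in the sources used here. Of the reads in the table, 23.7 to 28.3% lay in no feature and 1.56 to 2.08% were ambiguous, and both stayed out of library sizes. Symbols, found for 22362 of 22468 genes, and exon lengths came from a GRCm38 annotation, and 201 of 204 listed symbols were found. Replicate columns were compared, and 0 pairs were identical.

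Differences were tested with edgeR 4.0.16 in R 4.3.3, after filterByExpr (13412 genes left) and TMM scaling, by quasi-likelihood (robust option) with 1 mean for each group over the 16 samples, which leaves 12 residual degrees of freedom. Tests were two-sided, p-values were adjusted by Benjamini-Hochberg across these genes, and a call needs an adjusted p under 0.05. Levels are CPM on TMM-scaled totals as mean ± SD, and the floor is 3 counts, which covers counting error only. The interaction is the MI response in KO minus that in WT. The scripts were tested on simulated counts. Alternatives were DESeq2 1.42.0, limma 3.58.1 voom with quality weights, other scalings and count filters, a replicate block, 8 samples alone, covariates and the omission of samples. Named were the 7 members, for each comparison up to 6 called genes of the 4 channel lists with the smallest p, and the 2 genes most like each member; some genes the rule names are not reported here. Called conduction-system genes, called mural-cell genes, Cacna1g, Myl2, Nppa, Isl1, Shox2, Tbx3 and Tbx18 were named after their values were seen. The members and lists were chosen with earlier results of these data known. The alternatives were also applied to the other channel genes, which was chosen after seeing the data.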

Additional observations from a re-analysis of the deposited data

Results flagged for a closer look

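In 28 checks of a member's 4 samples in 1 group, 2 held a sample far from the other 3 by Dixon's test, which chance gives in about 1 of 20 groups. Kcnh2 had a low KO sham sample, replicate 1 at 202.3 CPM with the nearest at 233.2 CPM, a gap of 0.84 of the group's range. Hcn4 had a high WT sham sample, replicate 1 at 10.9 CPM with the nearest at 9.184 CPM, a gap of 0.841 of the range.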

How the results depend on the processing

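Of 720 alternatives over the 5 tested members, 678 kept the direction and the side of the threshold, 6 lost a call (all Hcn4 in KO MI over KO sham), 7 gained one and 29 changed sign, none of them a called value. The causes were not tested. The 720 include omissions of samples from groups outside a comparison. Only Hcn4 in KO MI over KO sham could lose a call, as no other member result was called. The count of all genes called was 302 in WT MI over WT sham (DESeq2 500, voom 495, 8 samples alone 181, without libraries low in Y-linked transcripts 166, atrial covariate 197), with 93 to 563 when 1 sample was left out, 93 without WT MI replicate 1 and 563 without KO MI replicate 4. In KO MI over KO sham it was 2220 (voom 4796, scaled to cardiomyocyte genes 1037, without Y-low libraries 1290; 1245 to 2928 with 1 sample left out). In KO sham over WT sham it was 2057 (voom 3901, 8 samples alone 3231, without Y-low libraries 1242, atrial covariate 842; 1297 to 2868). In KO MI over WT MI it was 2 (DESeq2 11, without haemoglobin and mitochondrial genes 1, 8 samples alone 1, without Y-low libraries 1; 1 to 4), and for the interaction 368 (DESeq2 632, voom 1524, cardiomyocyte scaling 194, without Y-low libraries 218, atrial covariate 112; 180 to 811). Cardiomyocyte scaling turned the split of higher and lower calls to 332 and 38 in WT MI over WT sham (177 and 125 with TMM), 720 and 317 in KO MI over KO sham (1145 and 1075), 2760 and 288 in KO sham over WT sham (1019 and 1038), 2 and 0 in KO MI over WT MI (1 and 1), and 86 and 108 for the interaction (221 and 147).

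Members called were 0 in WT MI over WT sham (voom 1, length and GC correction 2, 0 to 1 with a sample left out), 1 in KO MI over KO sham (voom 2, atrial covariate 0, 0 to 1), 0 in KO sham over WT sham (voom 1, cardiomyocyte scaling 1, 0 to 0), and 0 in KO MI over WT MI and for the interaction (0 to 0 each). Same-numbered samples did not pair in general (4 of 24 pairs correlated above 0.1, median r 0.011). The highest r was 0.475, between WT sham replicate 2 and WT MI replicate 2, and its cause was not tested. With the replicate block Hcn4 in KO MI over KO sham was -0.69 (adjusted p = 0.0313, edgeR quasi-likelihood).

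The sign changes, as log2 values, were these. Cardiomyocyte scaling gave Hcn4 0.0088 in WT MI over WT sham, Kcnq1 0.033, Kcnh2 0.035 and Hcn4 0.020 in KO sham over WT sham, Kcnq1 0.060 in KO MI over WT MI, and interactions of -0.086 for Kcnh2 and -0.020 for Kcnj2; it shifted the median of all genes by 0.113 in WT MI over WT sham, 0.218 in KO sham over WT sham and 0.148 in KO MI over WT MI. Voom gave Kcnq1 0.043 and Kcnj2 -0.093 in KO MI over WT MI, and a Kcnj2 interaction of -0.13. The atrial covariate gave Kcnip2 -0.14 in KO sham over WT sham and a Kcnj2 interaction of -0.35. Without Y-low libraries the interactions were -0.036 for Kcnh2 and -0.12 for Kcnj2, and without haemoglobin and mitochondrial genes that of Kcnh2 was -0.012. With 1 sample left out, Hcn4 ranged from -0.25 to 0.0028 in WT MI over WT sham, Kcnj2 from -0.0090 to 0.21 in KO sham over WT sham, Kcnq1 from -0.13 to 0.043 and Kcnj2 from -0.054 to 0.30 in KO MI over WT MI, and the interactions from -0.069 to 0.098 for Kcnh2 and from -0.17 to 0.18 for Kcnj2. Kcnd3 and Scn4b are limited by depth, as 3 reads equal 0.179 to 0.29 CPM.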
